A study of Rattus norvegicus with 10 samples.

Results

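Immediate early genes of neuronal activity were described from a list of 10: the AP-1 subunits Fos, Fosb and Junb, the zinc finger factors Egr1, Egr2 and Egr3, the synaptic protein gene Arc, the factor Npas4 and the orphan nuclear receptors Nr4a1 and Nr4a3. The deposited table lists 32883 Ensembl genes of the rat without symbols, and a symbol could be paired with an identifier only through the rows of the study's supplementary gene list that were readable here. These rows are of genes that the study called upregulated, and they named 3 of the 10 genes: Fosb (ENSRNOG00000046667), Junb (ENSRNOG00000042838) and Egr2 (ENSRNOG00000000640). The other 7 were not analysed here. All 3 named genes passed the filter on low counts, which kept 15717 genes.

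Genes of this kind are those that neurons switch on first when they are stimulated, before any new protein has been made. Calcium entry through glutamate receptors and voltage-gated channels activates kinases, and these act on transcription factors such as CREB and the serum response factor SRF, which are already bound at the promoters. Most of the products are transcription factors themselves, and their transcripts are short-lived, so that the level of an immediate early gene in a culture follows recent stimulation, growth factors, stress and handling as well as chromatin state. Glial cells and fibroblasts use many of the same genes, and in bulk RNA fewer cells of a type and less RNA per cell cannot be told apart.

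RNA sequencing covered 10 libraries of primary cultures of cortical cells from newborn Wistar rats, treated on day 14 in culture without washout: 3 with trichostatin A (TSA, 100 nM, 19 h), 3 of their control cultures, 2 with sodium butyrate (NaB, 24 h) and 2 of their own time-matched controls. Both compounds inhibit histone deacetylases, which take acetyl groups off histone tails. For NaB the sample labels give 5 µM, whereas the study's methods give 5 mM. Drug, incubation time and project differ together between the experiments and cannot be told apart. Each control and treated pair shared a plate, and the libraries held 26070908 to 27649249 recovered reads. Within groups, the 8 pairs of libraries had a chi-square per degree of freedom of 8.17 to 31.6, where counting error alone would give about 1. None of the defining markers of neurons, astrocytes or oligodendrocytes on the fixed lists could be paired with an identifier, so the labelled cell type was not checked here.

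How the genes were named bears on each result. Fosb and Egr2 were named from the TSA rows and also from the NaB rows of the supplementary list, and Junb from the NaB rows alone. That Junb rose with NaB is therefore no finding, and for Fosb and Egr2 each drug is compared only with the genes that the other drug's rows named. A p for one drug is given only for genes that the rows of the other drug named, whether or not its own rows named them too, and it is read against all genes named in that way. Both experiments share the normalization and the estimate of the spread. The readable rows are those with the highest fold changes in each list, so genes that changed little or fell with both drugs cannot appear.

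The promoters of the named genes are shown because the factors that act on immediate early genes bind close to the start site. RefSeq (build GRCr8, not the Rnor_6.0 build to which the reads were mapped) gave sequences for 6 of the 10 listed genes, the 3 named ones and Egr1, Npas4 and Nr4a1. The 250 bases before the annotated start are printed 5′ to 3′ on the strand of the gene, with capitals for matches to any of the 5 motifs searched.
Egr2, chr20:21054442-21054691, minus strand: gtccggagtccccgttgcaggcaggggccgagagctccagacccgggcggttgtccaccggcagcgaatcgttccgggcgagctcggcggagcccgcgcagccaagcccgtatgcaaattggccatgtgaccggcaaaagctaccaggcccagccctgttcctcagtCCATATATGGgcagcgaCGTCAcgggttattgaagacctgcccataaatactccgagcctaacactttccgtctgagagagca
Junb, chr19:40080876-40081125, plus strand: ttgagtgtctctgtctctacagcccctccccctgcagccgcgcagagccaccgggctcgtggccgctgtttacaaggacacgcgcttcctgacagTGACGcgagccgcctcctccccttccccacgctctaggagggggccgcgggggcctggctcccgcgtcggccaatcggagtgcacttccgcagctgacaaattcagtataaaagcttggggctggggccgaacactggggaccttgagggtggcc
Fosb, chr1:88089185-88089434, minus strand: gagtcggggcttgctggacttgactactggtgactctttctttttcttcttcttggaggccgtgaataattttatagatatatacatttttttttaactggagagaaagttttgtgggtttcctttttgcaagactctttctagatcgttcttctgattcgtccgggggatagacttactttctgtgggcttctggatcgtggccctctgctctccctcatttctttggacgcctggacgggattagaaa
The motifs, searched on both strands, were the CArG box of SRF, the full CREB site TGACGTCA, its shorter form TGACG, which the full site contains, the AP-1 site TGANTCA and the EGR site GCGNGGGCG. In Egr2, a CArG box began 83 bases before the start and TGACG, on the opposite strand, 66 bases before it. In Junb, TGACG began 155 bases before the start, and in the Fosb window no motif matched. A CArG box was present in 1.5% of the 33469 promoters searched and TGACG in 18.2%. TGACGTCA, TGANTCA and GCGNGGGCG, present in 1.59%, 6.34% and 4.29% of all promoters, had no match in the 3 windows. Over all 6 windows, with those of Egr1, Npas4 and Nr4a1, 2 held a CArG box, 4 TGACG and 1 GCGNGGGCG. None held TGACGTCA or TGANTCA. GC bases made up 43.6% of the Fosb window, 62.0% of that of Egr2 and 66.0% of that of Junb. A match is a description of the letters and not evidence of binding. For each listed gene only 1 annotated start and the 250 bases before it were searched. The lack of a match therefore does not show that a gene lacks such a site.

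Levels are given as normalized read counts (reads scaled by a size factor for each library), which can be compared between libraries but not between genes. Differences were tested with limma on log2(normalized count + 1) in all 10 libraries, with Benjamini-Hochberg adjustment over the 15717 genes tested. This main test did not use the plate pairs, which entered only in an alternative fit with a replicate block. Differentially expressed genes (DEGs) had an adjusted p under 0.05 and moved by 0.5 or more on the log2 scale in either direction. Log2 fold changes on this scale understate the change of genes with low counts.

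Control library 2 for TSA stood apart from its group in single genes. Col1a1, a collagen gene of fibroblasts, was at 47.4 normalized counts there, and the other controls for TSA were at 909 and 1379. Hspb1, a small heat shock protein gene, was at 52.5 there, compared with 7.38 and 11.7. Hspa1a, another heat shock gene, went the other way, at 4.12 compared with 11.6 and 13.9. Col1a1 and Hspb1 varied within groups more than 99.8% and 98.1% of tested genes. Over all genes, this library was not singled out. The chi-square per degree of freedom was 16.5 between controls 1 and 2, 20.8 between 1 and 3 and 31.6 between 2 and 3. The part of these differences in the results for immediate early genes was not tested. Without this library, the log2 fold changes with TSA were 2.71 for Fosb, 2.55 for Egr2 and 0.81 for Junb, whose call was then lost.

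All 3 named immediate early genes were higher in every treated library than in every control library of the same experiment, with TSA and with NaB. The log2 fold changes were 2.51 and 2.40 for Fosb, 2.26 and 2.98 for Egr2 and 0.82 and 1.85 for Junb, with TSA and NaB in that order. Of all tested genes, 33.1% lay wholly above their controls with TSA and 40.2% with NaB. Among genes named from the rows of the other drug, these shares were 95.3% with TSA and 95.8% with NaB, so that the lack of overlap is that of the background. For Junb with NaB it was in large part fixed by the naming.

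**Figure D1:**
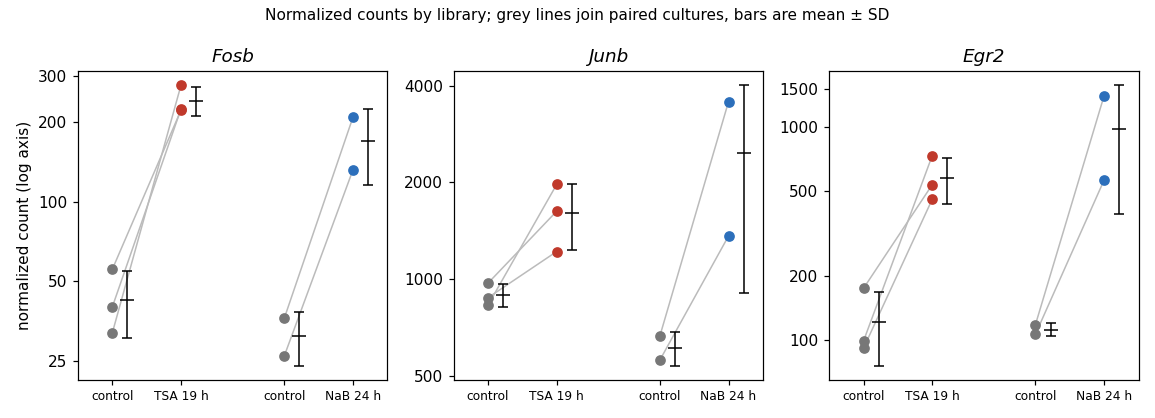
Normalized counts (log axis) of Fosb, Junb and Egr2 in the 10 libraries. Each point is a library, grey lines join the control and treated culture of a pair, and bars give the mean ± SD of a group. Every treated point lies above the controls of its experiment, and the 2 NaB libraries of Junb, at 1363 and 3569, lie far apart.

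Fosb encodes a Fos family protein that binds DNA as a dimer with a Jun protein. Its normalized counts were 40.1, 55.6 and 32.0 in the controls for TSA and 225, 223 and 277 with TSA. In the NaB experiment the controls had 36.2 and 26.1 and the treated cultures 209 and 132. The groups did not overlap in either experiment, and control library 2 for TSA was the highest of the 5 controls. The log2 fold change was 2.51 with TSA (standard error 0.25, adjusted p = 1.59e-05, limma) and 2.40 with NaB (standard error 0.31, adjusted p = 1.15e-04, limma). Within the 5 plate pairs, the treated culture had 5.61, 4.00 and 8.65 times the count of its control with TSA, and 5.76 and 5.06 times with NaB. At this depth the controls held 25 to 54 reads of Fosb and the treated libraries 137 to 285.

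Egr2 encodes a zinc finger factor that is induced by activity in neurons and that Schwann cells need for myelination. Its normalized counts were 91.8, 175 and 99.2 in the controls for TSA, and 459, 536 and 735 with TSA. In the NaB experiment they were 118 and 106 in the controls, and 1402 and 564 with NaB. Control library 2 for TSA stood above the other controls, and NaB library 1 stood far above NaB library 2, while the groups did not overlap in either experiment. The log2 fold change was 2.26 with TSA (standard error 0.33, adjusted p = 2.02e-04, limma) and 2.98 with NaB (standard error 0.41, adjusted p = 1.78e-04, limma). Pair by pair, the ratios of treated to control were 5.00, 3.06 and 7.40 with TSA and 11.9 and 5.30 with NaB. The change with NaB was 2.32 without NaB replicate 1 and 3.63 without NaB replicate 2.

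Junb encodes a Jun family partner in AP-1. In the TSA experiment its normalized counts were 972, 876 and 830 in the controls and 1628, 1219 and 1972 with TSA. The treated libraries were all higher, and TSA library 2 was closest to the controls. The log2 fold change with TSA was 0.82 (standard error 0.29, adjusted p = 0.0305, limma), and the call depended on which libraries were fitted. The adjusted p was 0.111 without TSA replicate 3, 0.0759 without TSA replicate 1, 0.0640 without control replicate 2 and 0.0809 without control replicate 3. It was 0.00269 with the plate pair as a replicate block and 0.00236 with the TSA libraries and their controls fitted alone. Without NaB replicate 1 or 2 it was 0.00180 or 0.00175, and the standard error fell from 0.29 to 0.16, since the spread of the 2 NaB libraries enters the estimate shared by all groups. With NaB, the experiment whose rows named the gene, the controls had 665 and 560 and the treated cultures 3569 and 1363, which gave a log2 fold change of 1.85 ± 0.36 (standard error). It was 1.16 without NaB replicate 1 and 2.55 without NaB replicate 2.

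The number of calls is to be read against the background of these drugs. Among all tested genes, 42.3% were DEGs with TSA, 22.5% upregulated and 19.7% downregulated. With NaB, 41.5% were DEGs, 21.2% upregulated and 20.3% downregulated. Among the genes that the NaB rows named, which rose by selection with NaB, 95.3% were upregulated DEGs with TSA, and the 3 of 3 immediate early genes had the same outcome. Among the genes that the TSA rows named, 87.2% were upregulated DEGs with NaB, as were both Fosb and Egr2. The median log2 fold change of the 3 genes with TSA was 2.26, compared with 2.80 for all 833 genes that the NaB rows named and 0.022 for all tested genes. With NaB, the median of Fosb and Egr2 was 2.69, compared with 1.80 for the 1755 genes that the TSA rows named.

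Whether the drugs differed was examined by subtracting the log2 change with TSA from that with NaB. Of all tested genes, 0.299% differed, 0.0255% with a higher and 0.274% with a lower change with NaB. These 47 genes became 404 with the replicate block, 255 with DESeq2, 422 with 5 controls as 1 group and 1 to 45 when a library was left out. The rows of both drugs named Fosb and Egr2 for a high fold change, and those of NaB alone named Junb, so that the differences are given without a test. For Fosb the difference was -0.11 (standard error 0.40), and for Egr2 it was 0.71 (standard error 0.53). That of Egr2 was 0.056 without NaB replicate 1 and 1.37 without NaB replicate 2. For Junb it was 1.03 (standard error 0.46), with 0.34 without NaB replicate 1 and 1.72 without NaB replicate 2. These values do not show that the drugs act alike on the genes, or that they do not.

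The untreated cultures of the projects were compared as well. The naming rows used these controls in part, since a low control level helps a gene to a high fold change, and the differences are therefore given as values without a test. Junb was at 612 ± 74.3 (SD, n = 2) in the controls for NaB and at 892 ± 72.3 (SD, n = 3) in those for TSA, a log2 difference of -0.55. The log2 difference was -0.42 for Fosb and -0.059 for Egr2. Of all tested genes, 1.55% differed between the control groups, 0.986% being higher and 0.56% lower in the controls for NaB. These 243 genes became 583 with DESeq2, 104 without the filter and 23 to 461 when a library was left out.

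The 3 genes varied between libraries of the same group more than most genes did. The residual SD of log2(normalized count + 1) around the 4 group means was 0.52 for Egr2, 0.46 for Junb and 0.34 for Fosb, at the percentiles 89.7, 86.7 and 78.0 of all tested genes. The value for Junb was carried by the NaB libraries, which lay 0.69 above and below their mean, whereas its TSA libraries and their controls lay within 0.37 of theirs. Deviations from the group means moved together for Fosb and Egr2, which lay on the same side of their means in 10 of 10 libraries (Pearson's r = 0.87). These are not 10 separate agreements, since the 2 libraries of each group in the NaB experiment mirror each other. For Junb, r was 0.72 with Egr2 and 0.68 with Fosb over 10 libraries. These last values rest on the NaB experiment, where 2 libraries per group deviate by equal and opposite amounts. In the 6 libraries of the TSA experiment alone, r was 0.87 for Fosb with Egr2, 0.39 for Fosb with Junb and 0.23 for Junb with Egr2. Related genes reached similar values. In the same 6 libraries, Nr4a2 had r = 0.93 with Junb, 0.25 with Fosb and 0.11 with Egr2. Over 10 libraries, Fosl2 had r = 0.68 with Fosb, 0.61 with Junb and 0.67 with Egr2, and in the 6 libraries 0.19, -0.67 and 0.28. The points share plates, library preparation and group means, and the correlations are descriptions.

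**Figure D2:**
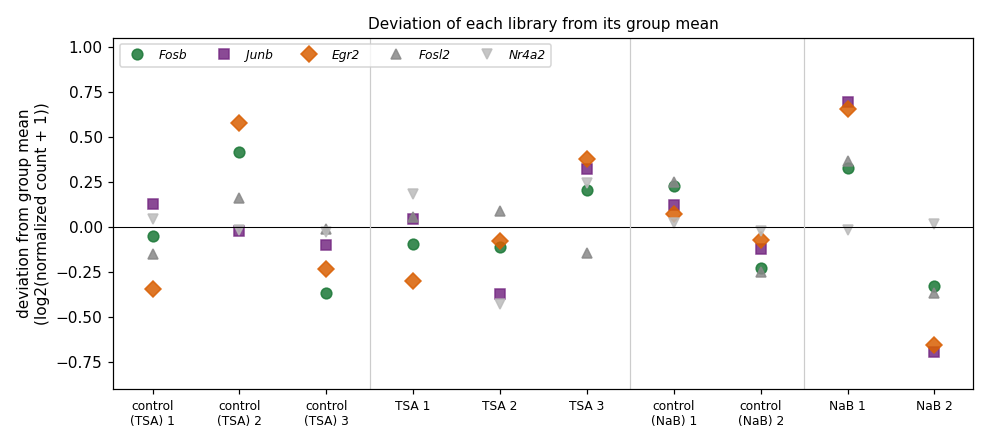
Deviation of log2(normalized count + 1) of Fosb, Junb, Egr2, Fosl2 and Nr4a2 in each library from the mean of its group, with vertical lines between the groups. The 3 immediate early genes are above their means together in NaB library 1, TSA library 3 and control library 1 for NaB. Fosb and Egr2 are above theirs without Junb in control library 2 for TSA.

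The genes whose deviations followed the mean deviation of Fosb, Junb and Egr2 most closely over the 10 libraries had no symbol in the rows read. They were ENSRNOG00000005274 (r = 0.99), ENSRNOG00000018166 (r = 0.97) and ENSRNOG00000017832 (r = 0.97). These were the highest r of all 15717 tested genes, the members left out, and the deviations have only 6 degrees of freedom. The top of such a search is high by selection, so that these r do not show a link to the immediate early genes. For the first, the log2 fold change was -1.40 with NaB and -0.10 with TSA, where those of Fosb, Junb and Egr2 were above 0.

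Of the 6 closest relatives of the listed genes, 2 were named, both from the TSA rows. Nr4a2, the nuclear receptor needed for dopamine neurons, had normalized counts of 155 and 150.3 in the NaB experiment's controls and of 375 and 383 in its treated cultures. The log2 fold change with NaB was 1.30 (standard error 0.20, adjusted p = 3.74e-04, limma). Fosl2, which encodes another Fos family protein, was at 47.6 and 33.4 in the controls and 63.3 and 37.6 with NaB, so that its groups overlapped. Its log2 fold change with NaB, 0.28 (95% interval -0.36 to 0.93, adjusted p = 0.431, limma), did not pass. With TSA, whose rows named it, Fosl2 was at 34.8, 43.3 and 38.4 in the controls and 93.8, 95.9 and 81.6 in treated cultures. The change with NaB minus that with TSA was -0.92 on the log2 scale, given without a test because the TSA rows named it.

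Other early response genes were described from a list of 30, of which 11 were named. Among the 10 named from the TSA rows, 9 were upregulated DEGs with NaB, with a median log2 fold change of 1.82 over the 10. Among all genes named from those rows, 87.2% were upregulated DEGs with NaB and the median was 1.80, so that the count and the median are those of the background. Klf4, a zinc finger factor known from stem cells, rose by 1.74 with NaB (adjusted p = 0.00880, limma), from 17.6 and 29.2 to 64.3 and 94.5 normalized counts. Without control replicate 1 for NaB, its adjusted p was 0.0658, and without NaB replicate 2 it was 0.0684. Ccn1, a secreted matrix protein, rose on the log2 scale by 2.72 with NaB (adjusted p = 5.47e-05, limma) and 2.28 with TSA (adjusted p = 2.89e-05, limma). The exception, named after its values were seen, was Gem, a small GTPase gene, at 85.9 and 73.1 in the controls and 119 and 114 with NaB (log2 fold change 0.55, adjusted p = 0.121, limma; 0.0352 with the replicate block). With 5 controls as 1 group, Gem passed as well, at a log2 fold change of 0.97 (adjusted p = 0.0157, limma). Atf3, a stress-induced factor, rose on the log2 scale by 1.77 with NaB (adjusted p = 0.0191, limma), and the call was lost without NaB replicate 2 (adjusted p = 0.182), without control replicate 1 for NaB (0.152) and with the NaB libraries fitted alone (0.0567). Its log2 fold change was 1.02 without NaB replicate 2, 1.15 without control replicate 1, 2.40 without control replicate 2 and 2.52 without NaB replicate 1.

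Of the 5 named from the NaB rows, 4 were upregulated DEGs with TSA (Ier3, Maff, Csrnp1 and Ccn1), compared with 95.3% of all genes named from those rows. The exception, also named after its values were seen, was Ccn2, a gene of the same secreted family as Ccn1. Its counts were 217, 188 and 176 in the controls for TSA and 175, 250 and 372 with TSA, an overlap of the groups (log2 fold change 0.39, adjusted p = 0.187, limma). It passed without TSA replicate 1 (adjusted p = 0.0269). In the controls for NaB, on whose level the naming of Ccn2 depended, it was at 79.7 and 62.6, a log2 difference of -1.44 from the controls for TSA that is given without a test.

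Genes that respond late to activity were named for 5 of 18 on their list, and all 5 were upregulated DEGs in each experiment that could test them, 5 of 5 with NaB and 3 of 3 with TSA. The shares among all genes named in the same way, 87.2% and 95.3%, are close to these counts, which therefore say nothing particular about late genes. Nptx2, a secreted pentraxin that clusters glutamate receptors at synapses, rose with NaB from 839 and 843 to 3500.4 and 2862 normalized counts, a log2 fold change of 1.91 (adjusted p = 5.21e-04, limma). Mmp9, a matrix protease gene, had a log2 fold change of 3.55 with TSA (adjusted p = 4.81e-04, limma; 4.32 without control replicate 2) and of 3.29 with NaB (adjusted p = 0.00344, limma). The Mmp9 controls held 1 to 9 reads, so that the size of these fold changes depends on the pseudocount. Pdyn and Tac1, which encode precursors of neuropeptides, had log2 fold changes of 1.72 and 1.59 with TSA (adjusted p = 1.13e-04 and 4.77e-05, limma). With NaB, Pdyn rose by 2.17 on the log2 scale (adjusted p = 1.37e-04, limma). Tac1 rose with NaB from 32.1 and 27.1 to 240.04 and 162 normalized counts (adjusted p = 1.21e-05, limma), a ratio of the means of 6.79. Its controls for NaB lay below those for TSA, at 98.1, 86.5 and 75.7, a log2 difference of -1.52 that is given without a test for the same reason as that of Ccn2. Scg2, a granin gene, rose by 1.73 with NaB (adjusted p = 2.15e-05, limma). Dusp5, a phosphatase that shuts off ERK kinases, was the only named gene of 10 feedback regulators, and it rose by 1.58 with NaB (adjusted p = 0.00278, limma).

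**Figure D3:**
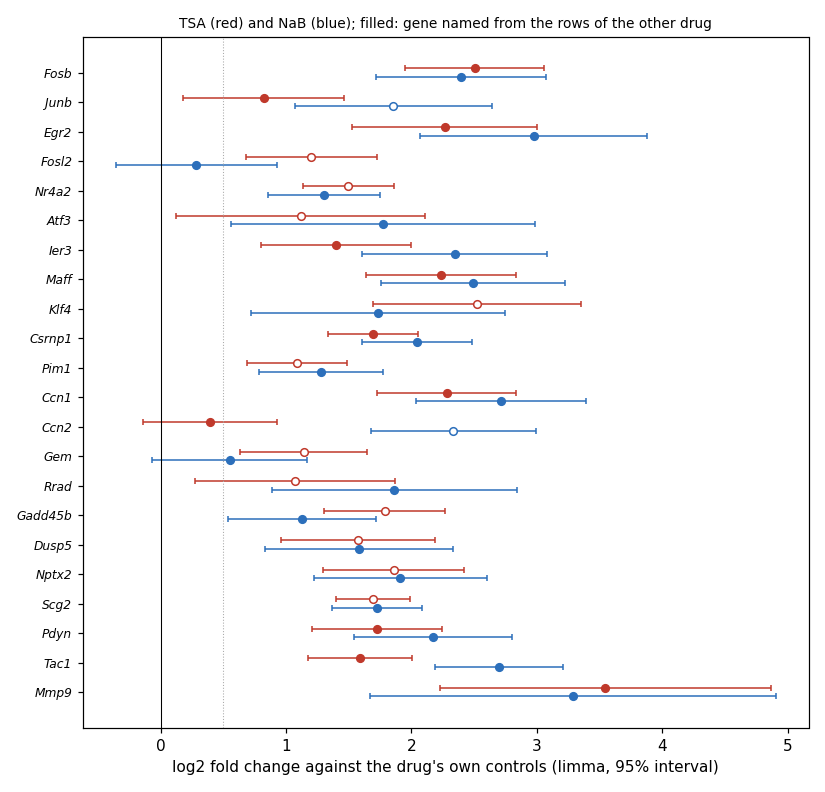
Log2 fold changes with TSA (red) and NaB (blue) of the named immediate early, early response, feedback and late genes, with 95% intervals from limma. Filled points are of genes named from the rows of the other drug. Most intervals lie above the dotted line at 0.5, and those of Fosl2 and Gem with NaB and of Ccn2 with TSA include 0.

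Upstream of the immediate early genes, 1 of 23 receptors, channels and kinases and 1 of 16 factors and coactivators were named. Rps6ka1, which encodes an S6 kinase that phosphorylates CREB and SRF, rose by 2.46 with TSA (adjusted p = 2.38e-06, limma) and by 2.64 with NaB (adjusted p = 1.00e-05, limma). Elk3, a partner of SRF at CArG boxes, rose by 1.66 with NaB (adjusted p = 3.77e-05, limma). None of the 11 histone deacetylase genes was named.

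Few genes of stress and of other cells could be read, and all came from upregulated rows. Of 10 heat shock genes, Hspa1a and Hspb1 were named, and both were upregulated DEGs with each drug. Among all genes named from the other drug's rows, 95.3% were upregulated DEGs with TSA and 87.2% with NaB. The count for heat shock genes is therefore that of the background. Hspa1a, the inducible chaperone, was at 11.6, 4.12 and 13.9 in the controls for TSA and at 188, 207 and 197 with TSA, while in the NaB experiment both controls were at 10.4 and the treated cultures at 135 and 133. Its log2 fold change was 4.33 with TSA (adjusted p = 4.15e-06, limma) and 3.57 with NaB (adjusted p = 7.18e-05, limma), and that of Hspb1 was 3.55 and 3.02 (adjusted p = 3.65e-04 and 0.00439, limma; with TSA 4.34 without control replicate 2). Of 4 endothelial markers, Flt1 was named and rose by 4.90 with TSA (adjusted p = 1.88e-06, limma) and by 4.04 with NaB (adjusted p = 3.25e-05, limma). Its controls held 1 to 5 reads, so that the size of these fold changes depends on the pseudocount. The microglial marker Tmem119, 1 of 7, and the fibroblast marker Col1a1, 1 of 5, both named from the NaB rows, had log2 fold changes of 0.48 and 1.00 with TSA and did not pass (adjusted p = 0.459 and 0.381, limma). Tmem119 held only 1 to 6 reads per library in the TSA experiment, too few to read its change. Without control replicate 2, Col1a1 was at -0.51 with TSA and passed as lower (adjusted p = 0.0283, limma). The other markers on these lists had no identifier, so that no sum over a list could be given. The part of stress or of other cells in the levels of the immediate early genes was not tested.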

How the data were processed

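RNA sequencing reads of the 10 libraries were mapped by the authors to Rnor_6.0 with STAR 2.7.9a and counted per Ensembl gene with featureCounts 2.0.1, and the deposited signal is the count of a gene divided by a DESeq2 1.29 median-of-ratios size factor (versions per the labels). The strand setting is not given in the sources used here, so that overlapping genes are uncertain. Taking the smallest value above 0 as 1 read turned 100% of the values into whole reads (tolerance 0.001). edgeR's filterByExpr (minimum count 10) kept 15717 of 32883 genes. The test was limma 3.58.1 (R 4.3.3) with a mean-variance trend on log2(value + 1), two-sided, over 4 groups. As alternatives, the recovered reads were tested with edgeR 4.0.16 and DESeq2 1.42.0, which called 3466 and 3341 genes higher with TSA, compared with 3540 by limma, and 3266 and 3160 with NaB, compared with 3337 by limma. On simulated data for the TSA comparison, limma recovered 89 of the genes changed 4-fold and 63 of those changed 2-fold, of 100 each, with 8 false calls among the unchanged genes. For the NaB comparison, it recovered 89 and 61, with 11 false calls. The simulation changed 200 of 15717 genes and had no plate pairs, whereas 42.3% of genes were DEGs with TSA and 41.5% with NaB. Its rates therefore do not carry over to the data.

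Symbols came from the identifier and symbol columns of the readable supplementary rows (1911 identifiers). Their values were not used. The annotation table at hand holds no Ensembl identifiers. Genes were named by rule: the listed genes, 6 relatives, from each other list, among DEGs of either drug, up to 2 with the largest increase and up to 2 with the largest decrease with TSA (no named gene decreased), the most abundant gene of each marker list, and the 3 with the closest deviations. In the marker lists only the identified gene could be given. Genes named outside the rule (Ier3, Maff, Csrnp1, Scg2, Pdyn, Tac1, Gem, Ccn2 and Atf3) were chosen after their values were seen. The members and lists were chosen with earlier results of these data known.

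Same-numbered libraries (TSA) and consecutive library names (NaB) were taken as plate pairs, as the study's methods state that pairs shared a plate. Over genes, the deviations of paired libraries had r = 0.284, 0.392 and 0.314 for the TSA pairs and 0.342 for both NaB pairs, which mirror each other. P-values measure the spread between these libraries, which may in part be technical. Alternatives were the count tests, library totals, TMM, no filter, a mean of at least 50, pseudocounts of 0.5 and 5, the replicate block, the libraries of a comparison alone, 5 controls as 1 group, a minimum log2 fold change of 1, and each library left out. Those for the difference between control groups were added after seeing the data. A count of 0 in a library allows a level of up to 3 reads (2.71 to 3.20 normalized counts), a limit that covers counting error only.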

Additional observations from a re-analysis of the deposited data

How the results depend on the processing

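Of 49 results for single genes, 40 kept their direction and their side of the thresholds under all of the 22 alternatives that applied to them. Fosb and Egr2 stayed upregulated DEGs with both drugs under each of them. Junb with TSA lost the call in 6 alternatives, namely without the filter (adjusted p = 0.0542), with a minimum log2 fold change of 1, and without TSA replicate 1 or 3 or control replicate 2 or 3 (limma). Its adjusted p was between 0.00175 and 0.111, and its log2 fold change was between 0.66 and 1.01 when a library was left out. With a library left out, the sign changed for the difference between the drugs for Fosb (-0.44 to 0.22), that between the control groups for Egr2 (-0.23 to 0.23) and Fosl2 with NaB (-0.084 to 0.65). Col1a1 with TSA ranged from -0.51 to 1.91 and passed as lower without control replicate 2 (adjusted p = 0.0283, limma). The cause was not tested.

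The upregulated DEGs numbered 3540 with TSA and 3337 with NaB, and 2117 and 1992 with a minimum log2 fold change of 1. They were between 3247 and 3553 with TSA and between 2774 and 3387 with NaB when a library was left out. Of the 3 named immediate early genes, 2 or 3 were among them with TSA, where 95.3% of all genes named from the NaB rows were. Drug effects differed in 47 genes, compared with 255 with DESeq2, 71 with library totals, 31 without the filter, 404 with the replicate block and 422 with 5 controls as 1 group, and in 1 to 45 when a library was left out. The control groups differed in 243 genes, 583 with DESeq2 and 104 without the filter, and in 23 to 461 when a library was left out. Among the effects of the drugs that were tested here, the replicate block changed the call of Gem with NaB (adjusted p = 0.0352, limma) and of no other named gene. Since only genes named from upregulated rows could be read, listed genes that changed little or fell with both drugs could not be seen. With NaB, 2 libraries per group make the values, so that small changes may not pass.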
